A study of Mus musculus with 4 samples.

Results

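The hydroxysteroid, alcohol and aldehyde dehydrogenases are oxidoreductases that move hydride between NAD(H) or NADP(H) and a hydroxyl, keto or aldehyde group. Every probe of the array whose annotated symbol begins with Hsd, Akr, Aldh, Adh, Dhrs or Rdh followed by a digit was taken, which gave 121 of 25697 probes and 77 of 16593 named genes. The 6 families held 30 Hsd probes (18 genes), 22 Akr (14), 30 Aldh (20), 7 Adh (4), 15 Dhrs (9) and 17 Rdh (12). RNA came from livers of mice labelled liver-specific ROCK1 KO (2 arrays) and from livers of mice labelled control (2 arrays), all on normal chow for 16 weeks. It was read on single-colour Illumina bead arrays. ROCK1 is a kinase that acts on the actomyosin cytoskeleton. The strain, sex, age, Cre driver and any floxed allele carried by the controls are not given in the sources used here, nor is it stated that each array holds RNA of its own animal, and p-values then cover no more than the spread among 4 arrays, which may be technical.

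In liver these enzymes interconvert active and inactive steroids, oxidise ethanol and retinol to aldehydes, and carry aldehydes on to acids. Most Hsd, Dhrs and Rdh proteins are short-chain dehydrogenases, Adh proteins are medium-chain zinc enzymes, Akr proteins are NADPH-dependent aldo-keto reductases, and Aldh proteins take the last step to the acid. Several also serve amino acid, folate, bile acid or fatty acid pathways, so the families are set apart by fold and sequence more than by pathway.

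All values below are log2(quantile-normalised intensity + 16), and a difference is ROCK1 KO minus control on that scale, with background left in, so that differences of dim probes are understated. A probe was called at a limma adjusted p under 0.05 over all 25697 probes, and was above background over a log2 value of 7.85. The median intensity was 203.4 and 206.3 on the ROCK1 KO arrays, against 144.9 and 136.9 on the control arrays, and the most frequent (background) intensity was 180.0 and 181.0 on the ROCK1 KO arrays, against 127.8 and 124.1 on the control arrays. The background thus differed by genotype before normalisation, and its part in the differences was not tested. The 75th percentile of intensity was 401.9 and 397.5 on the ROCK1 KO arrays, against 344.7 and 266.2 on the control arrays. The control arrays thus also differed from each other before normalisation, and the part of this in the calls was not tested. Rock1 itself read 8.06 and 7.91 in ROCK1 KO livers, against 8.51 and 8.51 in control livers, with a difference of -0.53 (limma adjusted p = 0.0181), a call lost when control replicate 1, control replicate 2 or ROCK1 KO replicate 2 was left out (adjusted p up to 0.0995). Of 15 measured hepatocyte markers 12 were above background on at least 2 arrays. The probes of Alb, Fgb and Tat, the genes of albumin, fibrinogen beta and tyrosine aminotransferase, were not. A probe at background therefore does not show that its gene is silent, here or below.

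Of the 121 member probes, 9 were higher and 21 lower in ROCK1 KO liver and 91 were not called, a called share of 24.8% against 8.02% of all probes. The members were chosen with earlier results of these data known, and the part of that choice in this share was not tested. The 21 lower probes include 6 of Hsd3b2 and 3 of Hsd17b11. By direction the members' shares were 7.44% higher and 17.4% lower, against 3.69% and 4.32% of all probes. Members were brighter than most probes: 73 of 121 were above background on at least 2 arrays, against 9587 of 25697 probes. Of those 73 members 28 were called, against 1758 of those 9587 probes (18.3%). A probe can pass that limit through its high group alone, as 5 called members did, and the part of brightness in the members' called share was not tested. The ROCK1 KO and control arrays did not overlap in 71 of the 121 members (58.7%), against 51.9% of all probes. With each gene read by its brightest probe, 7 of 77 genes were higher and 8 lower, which is 9.09% and 10.4% against 4.20% and 4.63% of all genes, or 19.5% in either direction against 8.84%. The median difference was -0.003 over the member probes and 0.001 over all probes, and called members lay on both sides of 0. The counts depended on single arrays: 2, 4, 11 and 6 members were called higher and 14, 8, 16 and 17 lower without control replicate 1, control replicate 2, ROCK1 KO replicate 1 and ROCK1 KO replicate 2. The calls of 8 probes held in all 4 of these fits, those of Hsd17b6, Aldh6a1 and Adh7, of 3 of the 6 Hsd3b2 probes, and of 1 probe each of Akr1c14 and Aldh8a1. Over all probes, too, fewer were called in each of these fits, with the counts given at the end. The share of all called probes that held in all 4 was not counted, so the 8 have no base to be set against.

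**Figure D1:**
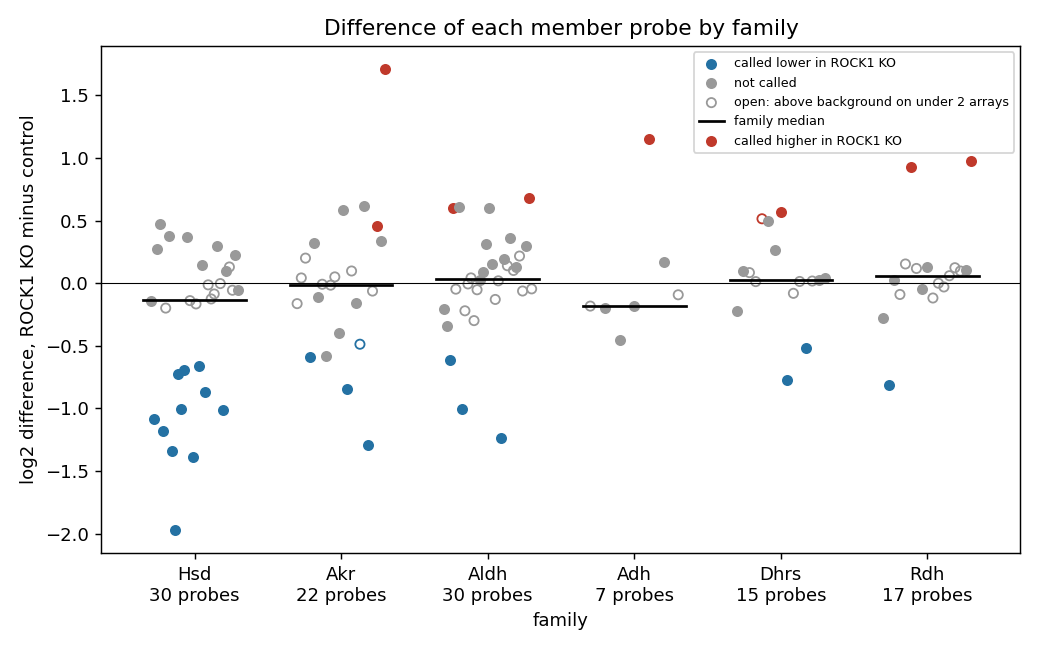
Log2 difference (ROCK1 KO minus control) of each of the 121 member probes by family, with the family median as a bar. All 11 called Hsd probes lie below 0, while Akr, Aldh, Dhrs and Rdh probes were called on both sides.

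By probe the steroid-converting Hsd family had most calls, 11 of 30, against 8.02% of all probes. All 11 were lower and came from 4 genes: Hsd17b6, Hsd3b2 (6 probes), Hsd17b11 (3 probes) and Hsd17b10. By brightest probe 4 of its 18 genes were lower and 0 higher, against 8.84% of all genes called. Of 14 Akr genes 1 was higher and 2 lower, of 20 Aldh 1 and 1, of 4 Adh 1 and 0, of 9 Dhrs 2 and 0, and of 12 Rdh 2 and 1. Hsd17b6, a microsomal enzyme that oxidises hydroxysteroids such as androstanediol, read 9.14 and 9.71 in ROCK1 KO livers, against 11.24 and 11.55 in control livers. Its lowest control array thus lay above its highest ROCK1 KO array, and it fell by 1.97 (SE 0.20, limma adjusted p = 0.000302), or 3.92-fold. Before normalisation its intensities were 626.4 and 909.7 in ROCK1 KO livers, against 2493.3 and 2154.7 in control livers, with the groups in the same order. The difference ran from -2.27 to -1.68 with any 1 array left out.

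Hsd3b2, of the mouse 3-beta-hydroxysteroid dehydrogenase cluster, was read by 6 probes and all 6 fell. Its brightest probe read 10.22 and 11.09 in ROCK1 KO livers, against 11.80 and 11.55 in control livers, a difference of -1.02 (SE 0.24, limma adjusted p = 0.0258), and the other 5 were called lower with fitted differences of -1.34 to -0.70. ROCK1 KO replicate 1 was the lowest array on each of the 6 probes, and ROCK1 KO replicate 2 lay between it and the controls. Before normalisation the brightest probe gave 1353.2 and 2372.2 in ROCK1 KO livers, against 3670.5 and 2150.0 in control livers, so that there the groups overlapped. Its call was lost without control replicate 1 (-0.89, adjusted p = 0.171), control replicate 2 (-1.13, adjusted p = 0.0995) or ROCK1 KO replicate 1 (-0.58, adjusted p = 0.0943). The next brightest lost its call without control replicate 1 (-1.18, adjusted p = 0.0733), control replicate 2 (-0.996, adjusted p = 0.134) or ROCK1 KO replicate 1 (-0.67, adjusted p = 0.0527). The third lost it without control replicate 1 (-1.34, adjusted p = 0.0691) or control replicate 2 (-1.33, adjusted p = 0.0894). Robust variance estimates likewise ended the calls of the brightest (-1.02, adjusted p = 0.0645) and of the third (-1.34, adjusted p = 0.119). The other 3 kept their calls in all 4 leave-one-out fits. Of those, the 2 dimmest were above background on no ROCK1 KO array and were at least 1.65-fold and 1.07-fold lower. The 6 probes share 1 gene and are not replicates. No probe carried the name of the near-identical liver paralogue Hsd3b3, and probes of such paralogues may bind each other's transcripts, and which copy these values read is uncertain.

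Hsd17b11, a dehydrogenase that sits on lipid droplets, fell on all 3 of its probes. The brightest read 10.95 and 11.66 in ROCK1 KO livers, against 12.02 and 12.33 in control livers (-0.87, SE 0.22, limma adjusted p = 0.0327). The next read 8.98 and 9.80 in ROCK1 KO livers, against 10.71 and 10.84 in control livers (-1.39, SE 0.23, limma adjusted p = 0.00402). The dimmest was at least 1.47-fold lower, with no ROCK1 KO array above background (adjusted p = 0.00597). On the brighter pair of probes ROCK1 KO replicate 1 was again the lowest array. The call of the brightest was lost without control replicate 1 (-1.03, adjusted p = 0.0861), control replicate 2 (-0.71, adjusted p = 0.225) or ROCK1 KO replicate 1 (-0.51, adjusted p = 0.139). That of the next was lost without control replicate 2 (-1.33, adjusted p = 0.0556), and that of the dimmest without control replicate 2 (-0.55, adjusted p = 0.0625). Hsd17b10, a mitochondrial enzyme of isoleucine breakdown that is also a subunit of mitochondrial ribonuclease P, read 12.30 and 12.61 in ROCK1 KO livers, against 13.05 and 13.32 in control livers. The groups did not overlap and it fell by 0.73 (SE 0.16, limma adjusted p = 0.0151), a call that did not hold without control replicate 2 (-0.60, adjusted p = 0.132) or ROCK1 KO replicate 1 (-0.58, adjusted p = 0.0585).

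The other 14 Hsd genes were not called by any probe, among them the enzymes of glucocorticoid activation, bile acid synthesis and fatty acid metabolism. Hsd11b1, which regenerates active glucocorticoid in liver, read 14.89 and 14.94 in ROCK1 KO livers, against 15.05 and 14.89 in control livers, a difference of -0.053 with a 95% interval of -0.26 to 0.16. Its other bright probes read 0.28 and 0.30. Hsd3b7, an early enzyme of bile acid synthesis, read 15.10 and 15.38 in ROCK1 KO livers, against 14.85 and 14.90 in control livers, without overlap. Its difference of 0.37 missed the threshold (adjusted p = 0.0543) and passed it in 3 of the 10 other settings that keep all 4 arrays (offset, background correction, normalisation, filter, variance model or block) and without ROCK1 KO replicate 1 (0.55, adjusted p = 0.00943). Hsd3b5, the male-biased 3-ketosteroid reductase of mouse liver, likewise read 0.37 with adjusted p = 0.0658 and was called in 2 of those 10 settings, from 14.30 and 14.14 in ROCK1 KO livers, against 13.83 and 13.86 in control livers. Hsd17b7, a 3-ketosteroid reductase of cholesterol synthesis, read 0.47 (adjusted p = 0.157) and was called without ROCK1 KO replicate 2 (0.74, adjusted p = 0.0242). For Hsd17b4, the peroxisomal bifunctional protein, Hsd17b2, which inactivates estradiol and testosterone, and Hsd17b12, the ketoacyl-CoA reductase of fatty acid elongation, the 95% intervals were -0.19 to 0.38, -0.50 to 0.22 and -0.27 to 0.56. The remaining 7 genes were above background on no array.

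**Figure D2:**
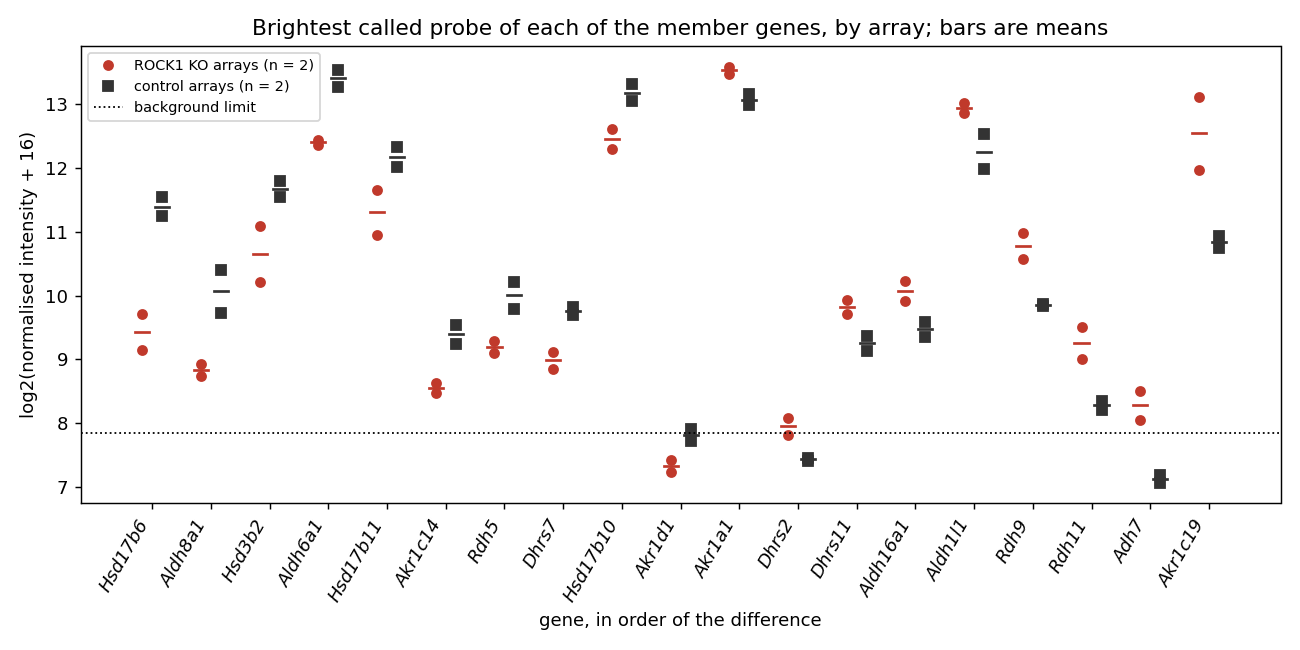
Log2 intensity on each array, for the brightest called probe of each of the 19 member genes with a call, in order of the difference, with ROCK1 KO left of control. Akr1c19, Hsd3b2 and Hsd17b11 show the widest gaps between their ROCK1 KO arrays.

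Among the aldo-keto reductases, 2 of 22 probes were higher and 4 lower, against 3.69% and 4.32% of all probes. Akr1c19, of the hydroxysteroid-reducing 1C group, read 13.12 and 11.98 in ROCK1 KO livers, against 10.75 and 10.93 in control livers. Both ROCK1 KO arrays lay above both controls but differed from each other by more than 1 log2 unit. It rose by 1.71 (SE 0.28, limma adjusted p = 0.00415), or 3.27-fold, the widest rise of any member. The difference ran from 1.13 to 2.29 according to which ROCK1 KO array was left out. Robust variance estimates ended the call (adjusted p = 0.119), as did leaving out control replicate 1 (1.62, adjusted p = 0.0540). Akr1c14, a 3-alpha-hydroxysteroid dehydrogenase, went the other way on both of its probes. The brighter read 8.47 and 8.63 in ROCK1 KO livers, against 9.25 and 9.54 in control livers (-0.84, SE 0.15, limma adjusted p = 0.00572), a call that did not hold without control replicate 2 (-0.70, adjusted p = 0.0684). The dimmer read 8.08 and 7.88 in ROCK1 KO livers, against 9.29 and 9.26 in control livers (-1.30, SE 0.13, limma adjusted p = 0.000254) and was called whichever array was left out, with differences that ran from -1.40 to -1.21.

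Akr1a1, the aldehyde reductase that mice also use in ascorbate synthesis, had 3 bright probes that did not move together. The brightest read 14.25 and 14.11 in ROCK1 KO livers, against 13.88 and 13.81 in control livers, and was not called (0.34, adjusted p = 0.0928). The next was called higher (0.46, SE 0.13, limma adjusted p = 0.0497), and the other was called lower (-0.59, SE 0.14, limma adjusted p = 0.0285). The called rise was lost without each array in turn (adjusted p up to 0.228), with 75th percentile scaling (0.39, adjusted p = 0.207), with an offset of 50 and after normexp correction with either normalisation. The called fall did not hold without control replicate 1 (-0.45, adjusted p = 0.187) or ROCK1 KO replicate 2 (-0.48, adjusted p = 0.115). Akr1d1, the 5-beta-reductase of bile acid synthesis, read 7.43 and 7.24 in ROCK1 KO livers, against 7.73 and 7.92 in control livers (adjusted p = 0.0177). It was above background on 1 control array alone, and no fold is given because its control mean of 7.82 lay under the background limit. Its call was lost without control replicate 2 (-0.41) or ROCK1 KO replicate 2 (-0.39) and with 75th percentile scaling (limma adjusted p = 0.209). Akr1e1, which reduces 1,5-anhydrofructose, read -0.58 at the threshold itself (adjusted p = 0.0502) and was called lower in 8 of the 10 other settings with all 4 arrays, the authors' deposited values among them (-0.60, adjusted p = 0.0497), and without ROCK1 KO replicate 1 (-0.68, adjusted p = 0.0498). Akr7a5, an aflatoxin aldehyde reductase, read -0.11 on its brightest probe and 0.62 and 0.59 on its others, with none called (adjusted p from 0.0567 to 0.606). The brightest was called in 0 of the 10 other settings, but the others were called higher in 6 and 7 of them. One of these was also called without ROCK1 KO replicate 1 (0.83, adjusted p = 0.0176). Akr1c6, the liver 17-beta-hydroxysteroid dehydrogenase of this superfamily, read -0.40 (adjusted p = 0.131, called in 1 of the 10 other settings). Akr1c12 read 0.32 (-0.13 to 0.77, 95% interval), with a call without ROCK1 KO replicate 2 (0.66, adjusted p = 0.0444). Akr1b10 read -0.16, and Akr1b8, Akr1c18, Akr1c20, Akr1c21 and Akr1cl were above background on no array.

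In the aldehyde dehydrogenase family 2 of 30 probes were higher and 3 lower, against 3.69% and 4.32% of all probes. Aldh6a1, the methylmalonate semialdehyde dehydrogenase of valine breakdown, read 12.36 and 12.45 in ROCK1 KO livers, against 13.28 and 13.54 in control livers. The arrays of each group lay close together and the gene fell by 1.005 (SE 0.14, limma adjusted p = 0.00167), or 2.01-fold, and by 0.87 to 1.13 with any 1 array left out, always called. Aldh8a1, a semialdehyde dehydrogenase of tryptophan breakdown, gave different answers by probe. Its brightest read 12.83 and 12.70 in ROCK1 KO livers, against 12.47 and 12.68 in control livers, and was not called (0.19, 95% interval -0.12 to 0.51). The next read 8.74 and 8.93 in ROCK1 KO livers, against 9.74 and 10.40 in control livers (-1.23, SE 0.20, limma adjusted p = 0.00381) and was called whichever array was left out. The dimmest was above background on both control arrays and no ROCK1 KO array, at least 1.28-fold lower, a call that did not hold without control replicate 2 (-0.50, adjusted p = 0.107) or ROCK1 KO replicate 1 (-0.50, adjusted p = 0.0619).

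Aldh1l1, the cytosolic 10-formyltetrahydrofolate dehydrogenase, had 4 probes with differences of 0.30 to 0.68, all above 0. One of them was called, reading 12.86 and 13.02 in ROCK1 KO livers, against 11.98 and 12.54 in control livers (0.68, SE 0.18, limma adjusted p = 0.0407), and its call was lost without control replicate 1 (0.39, adjusted p = 0.252) or ROCK1 KO replicate 2 (0.61, adjusted p = 0.122). The brightest read 0.60 (adjusted p = 0.0739) and was called in 2 of the 10 other settings and without control replicate 2 (0.91, adjusted p = 0.0224). Aldh16a1 read 9.92 and 10.23 in ROCK1 KO livers, against 9.36 and 9.59 in control livers (0.60, SE 0.17, limma adjusted p = 0.0477). The rise was called without ROCK1 KO replicate 1 but lost without control replicate 1 (0.48, adjusted p = 0.252), control replicate 2 (0.73, adjusted p = 0.113) or ROCK1 KO replicate 2 (0.45, adjusted p = 0.213). The main acetaldehyde-oxidising enzyme of mitochondria, Aldh2, read 15.58 and 15.71 in ROCK1 KO livers, against 15.42 and 15.57 in control livers, and its difference of 0.15 (95% interval -0.043 to 0.35) was not called and turned to -0.19 with 75th percentile scaling. Other uncalled members included Aldh4a1, of proline breakdown (0.36, adjusted p = 0.0788, called in 1 of the 10 other settings), Aldh1b1, a mitochondrial paralogue of Aldh2 (0.61, adjusted p = 0.0930, called in 2 of the 10 and without ROCK1 KO replicate 1 at 0.81, adjusted p = 0.0421), and Aldh3a2, the fatty aldehyde dehydrogenase (0.13). Aldh1a1, which oxidises retinal, read 12.98 and 13.64 in ROCK1 KO livers, against 14.004 and 13.29 in control livers, and its groups overlapped. Aldh5a1, the succinate semialdehyde dehydrogenase gene, read 0.091, and Aldh1a7, a close copy of Aldh1a1, -0.20. The 8 genes with no probe above background on any array included Aldh7a1, of lysine breakdown, and Aldh9a1, of carnitine synthesis, each read by 1 probe.

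Of the 4 alcohol dehydrogenase genes 1 was called. Adh7, the retinol- and ethanol-oxidising class IV enzyme known chiefly from stomach and other epithelia, was above background on both ROCK1 KO arrays and on no control array, with 8.51 and 8.05 in ROCK1 KO livers, against 7.07 and 7.19 in control livers. It was at least 1.35-fold higher (limma adjusted p = 0.000718), and the fitted difference of 1.15 ran from 0.93 to 1.38 with any 1 array left out, always called. Adh1, the main ethanol-oxidising enzyme of mouse liver, read 15.44 and 15.35 in ROCK1 KO livers, against 15.10 and 15.35 in control livers, and its 95% interval of -0.050 to 0.39 includes 0. The second Adh1 probe read -0.18, and with 75th percentile scaling the brighter one turned to -0.049. Adh4, the class II enzyme, read 12.50 and 12.66 in ROCK1 KO livers, against 12.88 and 13.18 in control livers without overlap, but -0.45 was not called (adjusted p = 0.0918), except in 1 of the 10 other settings. Adh5, which oxidises the formaldehyde adduct of glutathione, read -0.20 (95% interval -0.58 to 0.19).

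**Figure D3:**
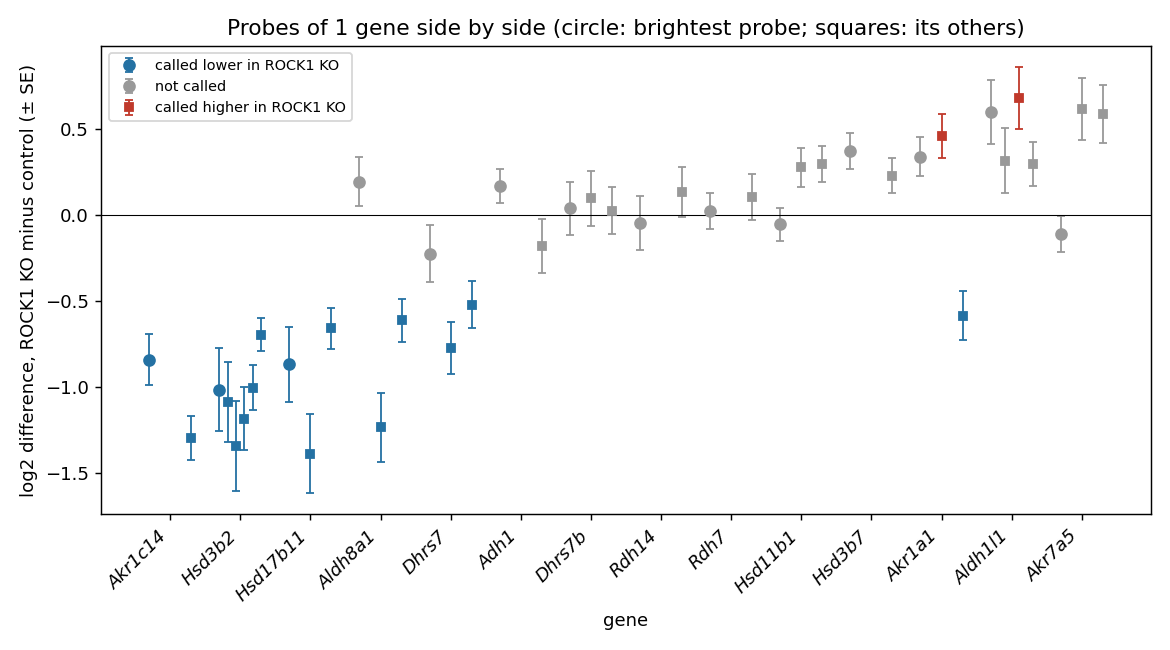
Log2 difference (ROCK1 KO minus control) with its SE for each probe above background on at least 2 arrays, for the 14 member genes with more than 1 such probe. Hsd3b2, Hsd17b11 and Akr1c14 fell on each of their probes, while Akr1a1, Aldh8a1 and Akr7a5 have probes on both sides of 0.

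In the retinol dehydrogenase family 2 of 17 Rdh probes were higher and 1 lower, against 3.69% and 4.32% of all probes. Each came from a different gene. Rdh9, a mouse enzyme active on cis-retinols and androgens, read 10.99 and 10.58 in ROCK1 KO livers, against 9.86 and 9.84 in control livers, and rose by 0.93 (SE 0.17, limma adjusted p = 0.00742). Rdh11, which reduces retinal, read 9.51 and 9.005 in ROCK1 KO livers, against 8.35 and 8.21 in control livers, and rose by 0.98 (SE 0.17, limma adjusted p = 0.00507). Rdh5, the 11-cis-retinol dehydrogenase known from the visual cycle, read 9.10 and 9.28 in ROCK1 KO livers, against 9.80 and 10.21 in control livers, and its difference was -0.81 (SE 0.17, limma adjusted p = 0.0143). The call of Rdh9 was lost without control replicate 1 (0.93, adjusted p = 0.0659) or control replicate 2 (0.93, adjusted p = 0.0692). That of Rdh11 was lost without control replicate 2 (0.92, adjusted p = 0.0691), and that of Rdh5 without control replicate 2 (-0.61, adjusted p = 0.136) or ROCK1 KO replicate 1 (-0.72, adjusted p = 0.0532). Rdh7, a close relative of Rdh9, read 14.41 and 14.47 in ROCK1 KO livers, against 14.47 and 14.36 in control livers, with a difference of 0.024 (95% interval -0.20 to 0.25) and 0.10 on its other probe. Rdh16 and Rdh14 read -0.27 and -0.046, with overlap of the groups in both. The other 6 Rdh genes, Rdh10 among them, which makes retinal in the embryo, were above background on no array.

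The Dhrs family holds short-chain dehydrogenases with less settled substrates. There 2 of 15 probes were higher and 2 lower, against 3.69% and 4.32% of all probes. Dhrs7 had 3 bright probes: the brightest read 10.74 and 10.46 in ROCK1 KO livers, against 10.78 and 10.87 in control livers, and was not called (-0.22, adjusted p = 0.473). The others were called lower, one at 9.12 and 8.85 in ROCK1 KO livers, against 9.69 and 9.83 in control livers (-0.78, SE 0.15, limma adjusted p = 0.0101) and one at -0.52 (adjusted p = 0.0417). Both calls held only without ROCK1 KO replicate 1 among the leave-one-out fits (highest adjusted p of 0.0946 and 0.239), and the dimmest also missed the threshold with normexp correction and quantile normalisation, where its difference was wider (-0.79, adjusted p = 0.0578). Dhrs11 read 9.71 and 9.93 in ROCK1 KO livers, against 9.13 and 9.37 in control livers (0.57, SE 0.16, limma adjusted p = 0.0490). The rise was lost without control replicate 1 (0.45, adjusted p = 0.256), control replicate 2 (0.69, adjusted p = 0.109) or ROCK1 KO replicate 2 (0.46, adjusted p = 0.195), and, at a wider difference, with normexp correction and quantile normalisation (0.67, adjusted p = 0.0525). Dhrs2 was above background on ROCK1 KO replicate 2 alone, at least 1.07-fold higher (limma adjusted p = 0.0151). That fold uses the mean of both ROCK1 KO arrays, of which replicate 1, at 7.82, lay under the background limit. Its call was lost without control replicate 1 (0.51, adjusted p = 0.0758), control replicate 2 (0.51, adjusted p = 0.108) or ROCK1 KO replicate 2 (0.39, adjusted p = 0.0859). Dhrs1 read 0.49 (adjusted p = 0.0594), not called here but called in 5 of the 10 other settings. Dhrs4 read 0.27, not called, and the 3 Dhrs7b probes lay between 0.024 and 0.10. Dhrs3, a retinal reductase, Dhrs9 and Dhrs13 were above background on no array.

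**Figure D4:**
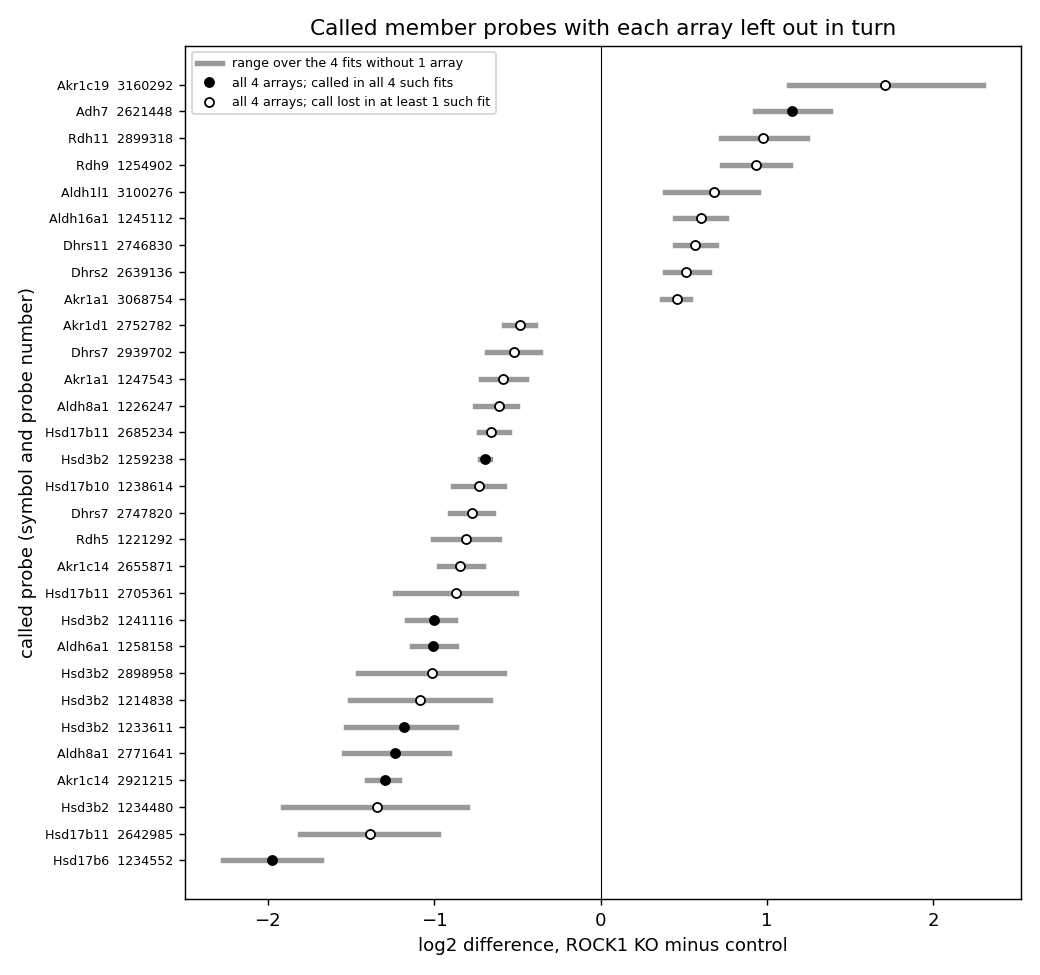
Log2 difference (ROCK1 KO minus control) of the 30 called member probes with all 4 arrays (circles) and its range over the 4 fits that each leave out 1 array (bars). Filled circles mark the 8 probes called in all 4 such fits, and since the groups of called probes do not overlap, no bar could cross 0.

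Many members are tandem copies. Members were chained where a start lay within 1 Mb of the next member's start in the RefSeq annotation of GRCm38.p6. This gave 4 groups of 4 or more genes: 7 genes on chromosome 10 (Rdh1, Rdh9, Rdh16, Rdh19, Rdh7, Hsd17b6 and Rdh5), 8 on chromosome 13 (Akr1c genes and Akr1e1), and 5 Hsd3b and 4 Adh genes on chromosome 3. Rdh5 joins the chromosome 10 group across its widest gap (start at 128913588, after Hsd17b6 at 127990931). Called neighbours had opposite signs on chromosomes 10 and 13. On chromosome 10, Rdh9 rose, Hsd17b6 and Rdh5 fell, and Rdh7, which lies between Rdh9 and Hsd17b6, read 0.024. On chromosome 13, Akr1c19 rose and Akr1c14 fell. In the Hsd3b group Hsd3b2 fell beside Hsd3b5 at 0.37, and in the Adh group Adh7 rose beside Adh1 at 0.17. Paralogues within a group may share probe sequence, and whether they do here was not tested.

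**Figure D5:**
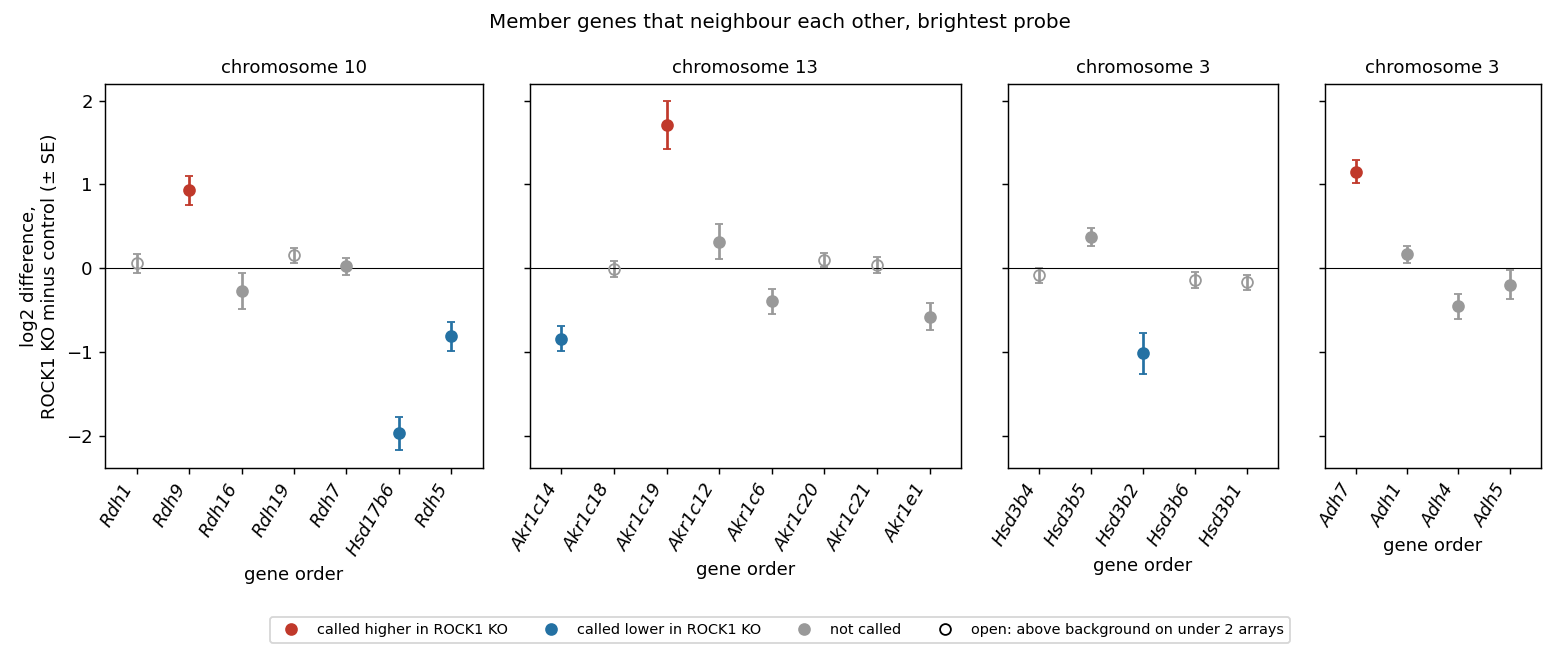
Log2 difference (ROCK1 KO minus control) with its SE for member genes in their order along 4 stretches of the genome, each gene by its brightest probe. Called rises and falls stand within a few member genes of each other on chromosomes 10 and 13, and genes outside the families are not shown or counted.

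The 250 bases upstream of a listed transcript start are shown for the neighbours that moved oppositely, Hsd17b6 with Rdh9 and Akr1c14 with Akr1c19, so that their sequences can be set side by side. The starts are those of the promoter table and are not always the end of the gene's span. The windows are from RefSeq, build GRCm38.p6: chr10:128007612-128007861 on the minus strand (the more upstream of 2 listed starts, 37 bases inside the span chr10:127990931-128007648), chr10:127776155-127776404 on the plus strand (directly before the span chr10:127776405-127792697), chr13:4059341-4059590 on the plus strand (before an internal start 10600 bases inside the span chr13:4048991-4090560) and chr13:4233490-4233739 on the plus strand (before a start 237 bases inside the span chr13:4233503-4248361). Each is written 5′ to 3′ along its gene, and capitals mark matches to any of the 6 motifs searched.
Hsd17b6: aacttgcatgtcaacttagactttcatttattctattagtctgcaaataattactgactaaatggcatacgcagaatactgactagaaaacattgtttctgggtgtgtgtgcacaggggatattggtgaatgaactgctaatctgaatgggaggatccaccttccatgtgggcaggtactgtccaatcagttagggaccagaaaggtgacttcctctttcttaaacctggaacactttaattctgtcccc
Rdh9: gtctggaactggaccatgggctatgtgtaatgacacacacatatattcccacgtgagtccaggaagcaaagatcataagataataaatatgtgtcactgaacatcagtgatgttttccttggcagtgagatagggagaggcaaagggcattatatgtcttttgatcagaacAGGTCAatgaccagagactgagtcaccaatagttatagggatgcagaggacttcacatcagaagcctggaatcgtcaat
Akr1c14: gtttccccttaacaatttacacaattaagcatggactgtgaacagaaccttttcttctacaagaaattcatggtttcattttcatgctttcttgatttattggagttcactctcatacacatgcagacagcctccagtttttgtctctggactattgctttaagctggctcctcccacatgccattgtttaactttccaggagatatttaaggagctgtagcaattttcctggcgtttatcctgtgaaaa
Akr1c19: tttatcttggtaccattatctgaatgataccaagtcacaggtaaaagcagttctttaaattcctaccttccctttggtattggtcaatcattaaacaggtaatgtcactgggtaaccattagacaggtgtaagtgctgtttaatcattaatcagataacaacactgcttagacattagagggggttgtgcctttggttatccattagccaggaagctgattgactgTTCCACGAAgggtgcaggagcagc

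The motifs, sought on both strands, were a TATA box (TATAAA), a STAT site (TTCNNNGAA), an HNF4 site (CAAAGTCCA), the first arm of an HNF1 site (GTTAAT), a C/EBP site (TTGCGCAA) and the core hexamer of nuclear receptor sites (AGGTCA). Rdh9 had AGGTCA starting 79 bases before its start, Akr1c19 had a match to TTCNNNGAA starting 24 bases before it, and the Hsd17b6 and Akr1c14 windows held none of the 6. Of the 77 member genes 63 had an entry, with 72 promoters in all. Matches to TATAAA stood in 8 of these 72 (11.1%, against 12.4% of all 32851 promoters listed), TTCNNNGAA in 7 (9.72% against 7.02%), GTTAAT in 7 (9.72% against 6.43%) and AGGTCA in 12 (16.7% against 14.0%). CAAAGTCCA and TTGCGCAA stood in 0 of them, against 0.384% and 0.164% of all. A match is a string of letters, not a bound site.

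Genes of the same pathways outside the 6 families were read by their brightest probe, by which 4.2% of all genes were higher and 4.63% lower. Of 22 measured genes of retinoid handling 1 was higher and 3 lower (median 0.0090, against 0.004 over all named genes). Retsat, the retinol saturase gene, fell, with a difference of -1.13 (limma adjusted p = 0.000442), and so did Rbp4, the plasma retinol carrier of hepatocytes, with -1.21 (limma adjusted p = 0.000685), and both were called whichever array was left out. Bco1, which cleaves beta-carotene, was above background on both control arrays and no ROCK1 KO array, at least 1.18-fold lower (limma adjusted p = 0.0209). Rbp2, a cellular retinol-binding protein, was above background on 1 ROCK1 KO array alone, at least 1.01-fold higher (limma adjusted p = 0.0162). The ROCK1 KO mean behind the Rbp2 fold includes replicate 1, which at 7.77 lay under the background limit. The calls of Bco1 and Rbp2 were lost in 3 and 2 of 4 leave-one-out fits. For Bco1 this was without either control array or without ROCK1 KO replicate 1, and for Rbp2 without control replicate 1 or ROCK1 KO replicate 2. Of 14 genes of steroid reduction, hydroxylation and reception 0 were called (median 0.11). Of 17 genes of ethanol and aldehyde handling 1 was lower and 0 higher (median 0.11): Xdh, the xanthine dehydrogenase gene, read -1.13 (limma adjusted p = 0.00890), a call that did not hold without control replicate 2 (adjusted p = 0.102). Cyp2e1, the ethanol-oxidising cytochrome, read -0.21 (limma adjusted p = 0.157).

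Marker lists were read in the same way, since whole liver holds other cell types, and fewer cells of a type cannot be told apart here from less RNA per cell. Of 15 hepatocyte markers 1 was higher, Fga, the fibrinogen alpha gene, at 0.45 (limma adjusted p = 0.00442). The 3 lower ones were Serpina1a, an alpha-1-antitrypsin gene, at -1.82 (limma adjusted p = 1.38e-05), Apoh, the beta-2-glycoprotein gene, at -1.79 (limma adjusted p = 0.000383), and Serpinc1, the antithrombin gene, at -1.25 (limma adjusted p = 0.00652), this last not called without control replicate 2 (adjusted p = 0.0864). The list's sum rests mostly on 6 probes, Fga among them, that reached an intensity of 60000, near saturation, on at least 1 array, so it can show little change (summed normalised intensity 429366 and 432296 in ROCK1 KO livers, against 444040 and 462050 in control livers). Of 11 pericentral markers 3 were higher and 2 lower, and of 8 periportal markers 1 was higher and 1 lower. Of 11 male-biased liver genes 4 were higher and 0 lower (209279 and 188675 in ROCK1 KO livers, against 170427 and 182207 in control livers). Of 11 female-biased genes 0 were called, 3 of them above background on at least 2 arrays. Of 4 sex chromosome genes 2 were lower, the Y-linked Eif2s3y (-0.90, limma adjusted p = 0.00522) and Kdm5d (at least 1.34-fold, limma adjusted p = 0.0151). The call of Eif2s3y was lost without control replicate 1 and that of Kdm5d without control replicate 2 or ROCK1 KO replicate 1 (adjusted p up to 0.0621 and 0.128). Eif2s3y was above background on all 4 arrays and Xist on none. Of 11 sinusoidal endothelial markers 2 were lower and 0 higher (summed intensity 12895 and 12140 in ROCK1 KO livers, against 17617 and 16357 in control livers). Of 9 Kupffer cell and macrophage markers 2 were lower and 0 higher (4546 and 4411 in ROCK1 KO livers, against 5756 and 4913 in control livers). Of 11 stellate cell markers 1 was lower, of 4 cholangiocyte markers 2 were higher, of 8 lymphocyte and neutrophil markers 1 was higher and 1 lower, of 4 red cell markers 1 was higher, and of 9 adipocyte, kidney and muscle markers 0 were called. The part of these shifts in the members' differences was not tested.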

How the data were processed

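Liver RNA of 2 ROCK1 KO and 2 control samples was read on single-colour Illumina arrays. Per the file headers, the deposited values are 1 linear intensity per probe and array, without detection p-values. A second deposited table holds log2 values by the authors that rank the probes of an array as the intensities do (rank correlation 1), and it served as an alternative. Scanner software and slides are not given in the sources used here.

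Intensities were quantile-normalised, 16 was added, and log2 taken. All 25697 probes were fitted in R 4.3.3 with limma 3.58.1 (lmFit and trended eBayes), whose two-sided p-values were adjusted by Benjamini-Hochberg. The code was tested on simulated arrays, where 25.2% of 1.5-fold and 90.4% of 2-fold changes put into probes above background were called. Of the calls there 5.05% were false. A gene that was not called may thus still differ. The simulated arrays had independent noise, 200 changed probes a run and no background difference between the groups. The simulated rates may therefore not carry over to the real arrays. The background limit is the mode of the normalised values plus 3 SD. An at-least fold sets the mean of the bright group against that of the dim one, with dim arrays raised to the smallest value over that limit where they lie under it. No member reached 60000, treated as near saturation. Symbols came from the platform annotation. All 77 member genes matched RefSeq (GRCm38.p6) by gene identifier. Named genes were those with a called probe, the 3 brightest uncalled genes of each family and a fixed list, and examples from other lists were the called ones with the smallest p. Examples beyond that rule (Cyp2e1, Alb, Fgb, Tat, Serpinc1, Xist and a few uncalled members) were chosen after their values were seen. The members and lists were chosen with earlier results of these data known. Alternatives covered offset, background correction, normalisation, filter, variance model, replicate block, threshold, probe averaging and each array left out. Python 3.11.15 and matplotlib 3.10.9 drew the figures.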

Additional observations from a re-analysis of the deposited data

How the results depend on the processing

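The 9 member probes called higher became 17 with the replicate block, 4 at an adjusted p under 0.01, 5 with a gene's probes averaged, and 2 to 11 with 1 array left out. The 21 member probes called lower became 10 at an adjusted p under 0.01, 8 with a gene's probes averaged, and 8 to 17 with 1 array left out. The 2060 of all probes called became 795 at an adjusted p under 0.01, 1185 with a gene's probes averaged, 800 to 1679 with 1 array left out and 2920 with the replicate block. The counts with a gene's probes averaged are of genes, with probes without a symbol kept singly, and are not on the same base as the probe counts. By brightest probe 7 member genes were higher and 8 lower. Same-numbered arrays did not deviate together (r = -0.087 over 9587 probes above background), so the replicate number pairs nothing known. Offsets of 1 and 50, normexp correction, 75th percentile scaling, the authors' deposited log2 values, the background filter, no intensity trend and a robust variance model kept the 3 counts within 1.5 times. No called member probe turned sign with all 4 arrays in any setting that fits single probes. With 1 array left out none could, since their groups do not overlap. Among named members that were not called, signs turned as follows: with 75th percentile scaling Adh1 (-0.049), Aldh2 (-0.19) and Rdh7 (-0.076); with normexp correction as well Adh1 (-0.041), Aldh2 (-0.18) and Rdh7 (-0.067); with a gene's probes averaged Adh1 ILMN_2850077 (-0.0070), Akr7a5 (0.36), Aldh8a1 (-0.55), Hsd11b1 (0.12) and Rdh14 (0.043). With 1 array left out the ranges that crossed 0 were -0.42 to 0.022 for Adh5, -0.023 to 0.66 for Akr1c12, -0.69 to 0.019 for Aldh1a1, -0.19 to 0.45 for Aldh3a2, -0.13 to 0.31 for Aldh5a1, -0.13 to 0.026 for Hsd11b1, -0.35 to 0.074 for Hsd17b2, -0.041 to 0.23 for Hsd17b4, -0.15 to 0.066 for Rdh14, -0.62 to 0.069 for Rdh16 and -0.031 to 0.066 for Rdh7, and, of other probes of named genes, -0.14 to 0.42 for Hsd17b12, -0.051 to 0.13 and -0.026 to 0.22 for Dhrs7b, -0.43 to 0.066 for the dimmer Adh1 probe, -0.12 to 0.32 for the dimmer Rdh7 probe and -0.0056 to 0.63 for 1 Aldh1l1 probe. The cause was not tested, apart from the fewer arrays or features that those settings use by construction. 75th percentile scaling moved the median difference of all probes by 0.082, and by 0.16 after normexp correction. Signal over background limits the rest: 29 of the 77 genes had no probe above background on any array.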
